A study of Homo sapiens with 96 samples.

Results

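LINC00534 and ENSG00000286251 are long non-coding RNA genes that the study lists among its very long intergenic non-coding RNAs (vlincRNAs), and the measurements described here are the A-to-I RNA editing sites that the deposited list places inside them. In GENCODE release 44 on GRCh38, LINC00534 (ENSG00000253394.7) spans 467 kb on the plus strand, chr8:90221341-90687863, and ENSG00000286251 spans 304 kb on the minus strand, chr4:126431694-126735523. Sites were taken by position and strand, and 25 sites fell in LINC00534 and 13 in ENSG00000286251, 38 of the 4149 sites of the list. Members were thus selected on measured values: a site entered the list through its own editing level, in at least 2 samples and above 0.2 in 1 of them (or, at 1 site of LINC00534, through Sanger sequencing alone), so that these loci hold edited sites is not a finding.

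The cells were K562, a human cell line of chronic myeloid leukemia origin, and total RNA depleted of rRNA was sequenced in 96 samples of 93 conditions, 90 of them with 1 sample and 3 with 2. Of these samples, 80 were K562 cells and 16 were derivative lines stably transduced with lentiviral vectors, 4 samples with AsiSI and 12 with CSB, Cas9, LIG3, LINE or MRE11A, given doxycycline or water for 2 to 13 days. K562 cells were untreated or received the solvent DMSO, etoposide (a topoisomerase II poison), SN-38 (a topoisomerase I poison), talazoparib (a PARP inhibitor), cyclophosphamide (an alkylating drug), mirin (an MRE11 inhibitor), romidepsin (an HDAC inhibitor), imatinib (a BCR-ABL inhibitor), rapamycin or Torin1 (mTOR inhibitors), or the transcription inhibitors actinomycin D and alpha-amanitin. In the actinomycin D chase, 6 h of a drug or DMSO came before the transcription inhibitor, as in 8 of the 11 samples of the alpha-amanitin set. In the wash-out set, 6 h of DMSO, etoposide or SN-38 were followed by 0, 2 or 6 h without it. In the kinase inhibitor set, 3 h of DMSO or of the ATR, ATM and DNA-PK inhibitors AZ-20, KU-60019 and NU7441 came before a second agent. The time course gave DMSO, imatinib, etoposide or romidepsin for 6, 12, 24, 36 or 48 h. These 10 treatment sets were made here from the treatments in the sample titles and are not named by the labels. For the samples of DMSO for 2 h, of DMSO or romidepsin for 6 h and of untreated cells the titles do not say which experiment they belong to, so their place in a set is an assumption, and results that rest on it are also given without it. The value per site and sample is the editing level, a fraction from 0 to 1, and a 0 was read as no level recorded. No read depth accompanies a level. The number of other listed sites with a level, from 30 to 624 per sample with a median of 227.5, is given beside the results. It serves as a rough measure of how much each sample yielded. Read numbers per sample, which the paper lists in its supplement, were not used here.

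ADAR enzymes convert adenosine to inosine in double-stranded RNA, and inosine is read as G. Such duplexes commonly form where 2 inverted copies of a repeated sequence lie in the same transcript and fold back on each other. Adenosines in these structures are typically edited in groups, many of them in introns and in long non-coding RNAs. An adenosine facing a C is a well-known preferred target, while one preceded by G is disfavoured. The paper also describes a preference for U as the preceding base. The 13 sites of ENSG00000286251 lay in 3 groups, in which neighbouring sites are at most 100 bases apart. The sequences below carry them. They are shown because the first and the second turned out to be inverted copies of each other and the third folds back on itself. Each is given 5′ to 3′ as RNA from the minus strand of chromosome 4 (GRCh38), with the listed edited adenosines in capitals.

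ENSG00000286251 group 2, chr4:126434039-126434189, 3 sites: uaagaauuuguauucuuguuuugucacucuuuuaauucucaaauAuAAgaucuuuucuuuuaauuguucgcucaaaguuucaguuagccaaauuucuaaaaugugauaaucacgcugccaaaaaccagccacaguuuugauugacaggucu
ENSG00000286251 group 1, chr4:126433197-126433349, 8 sites: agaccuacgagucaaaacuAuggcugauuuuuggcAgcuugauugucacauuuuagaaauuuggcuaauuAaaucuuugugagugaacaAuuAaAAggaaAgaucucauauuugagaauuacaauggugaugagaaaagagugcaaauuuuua
ENSG00000286251 group 3, chr4:126472682-126472756, 2 sites: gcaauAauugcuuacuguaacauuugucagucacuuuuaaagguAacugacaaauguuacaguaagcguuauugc

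Reading from the transcript's start, group 2 came first and group 1 followed after 689 bases. The reverse complement of one matched the other over 153 aligned bases at 83.0% identity, and all 11 sites of both groups lay inside the match. Group 3 lay in a stretch of 75 bases that matched its own reverse complement over 76 aligned positions at 89.5% identity. Opposite the 13 edited adenosines in these alignments stood U in 9 and C in 4. The base before the edited adenosine was U in 7, A in 5, C in 1 and G in 0 of the 13.

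The sites of LINC00534 were arranged likewise. Of its 25 sites, 24 lay in 4 groups of 6 each, and the other, at position 90303104, stood alone. Groups 2 (90321406 to 90321479) and 3 (90321929 to 90322012) matched as inverted copies over 128 aligned bases at 83.6% identity, 416 bases apart. Groups 4 (90328820 to 90328854) and 5 (90331346 to 90331376) matched over as many as 168 aligned bases at 81.5% identity, 2285 bases apart. Thus every group of 6 faced another group of 6. Opposite the 24 adenosines stood U in 19, C in 3 (12.5%), A in 1 and G in 1. The preceding base was A in 10, C in 7, U in 7 and G in 1 of the 25. U thus preceded 28% of these sites, against 55.5% of the other vlincRNA sites and 49.2% of the listed sites outside both loci. C also preceded 28%, against 11.5% and 13.0%. In ENSG00000286251 these shares were 53.8% for U and 7.69% for C. These differences in the preceding base were not tested. All 25 sites of LINC00534 and all 13 of ENSG00000286251 were in introns of the annotated transcripts.

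An inverted match of at least 50 bases and 70% identity within 2000 bases was found for 12 of the 25 sites of LINC00534 (48.0%) and 13 of 13 of ENSG00000286251. The same rule found one for 229 of the 330 other vlincRNA sites (69.4%) and 2866 of the 4111 listed sites outside both loci (69.7%). Within 5000 bases the counts were 24 of 25 (96%) for LINC00534, 288 of 330 (87.3%) for the other vlincRNA sites and 3232 of 4111 (78.6%) outside both loci. For LINC00534, how often the matching partner carried edits too depended on the width searched. Within 2000 bases the partner held another listed site for 12 of 25 sites of LINC00534 (48.0%) and 13 of 13 of ENSG00000286251. The other vlincRNA sites had 158 of 330 (47.9%) and the sites outside both loci 1979 of 4111 (48.1%). Within 5000 bases it held one for 24 of 25 sites of LINC00534 and 13 of 13 of ENSG00000286251. Here the other vlincRNA sites had 206 of 330 (62.4%) and the sites outside both loci 2241 of 4111 (54.5%). Sites of 1 group share their match, so these are 4 of 5 groups and 3 of 3 groups, against 71 of 162 (43.8%) and 729 of 2133 (34.2%), and no test was made. Group 3 of ENSG00000286251 matches itself, so its partner holds the group's other site by construction.

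**Figure D1:**
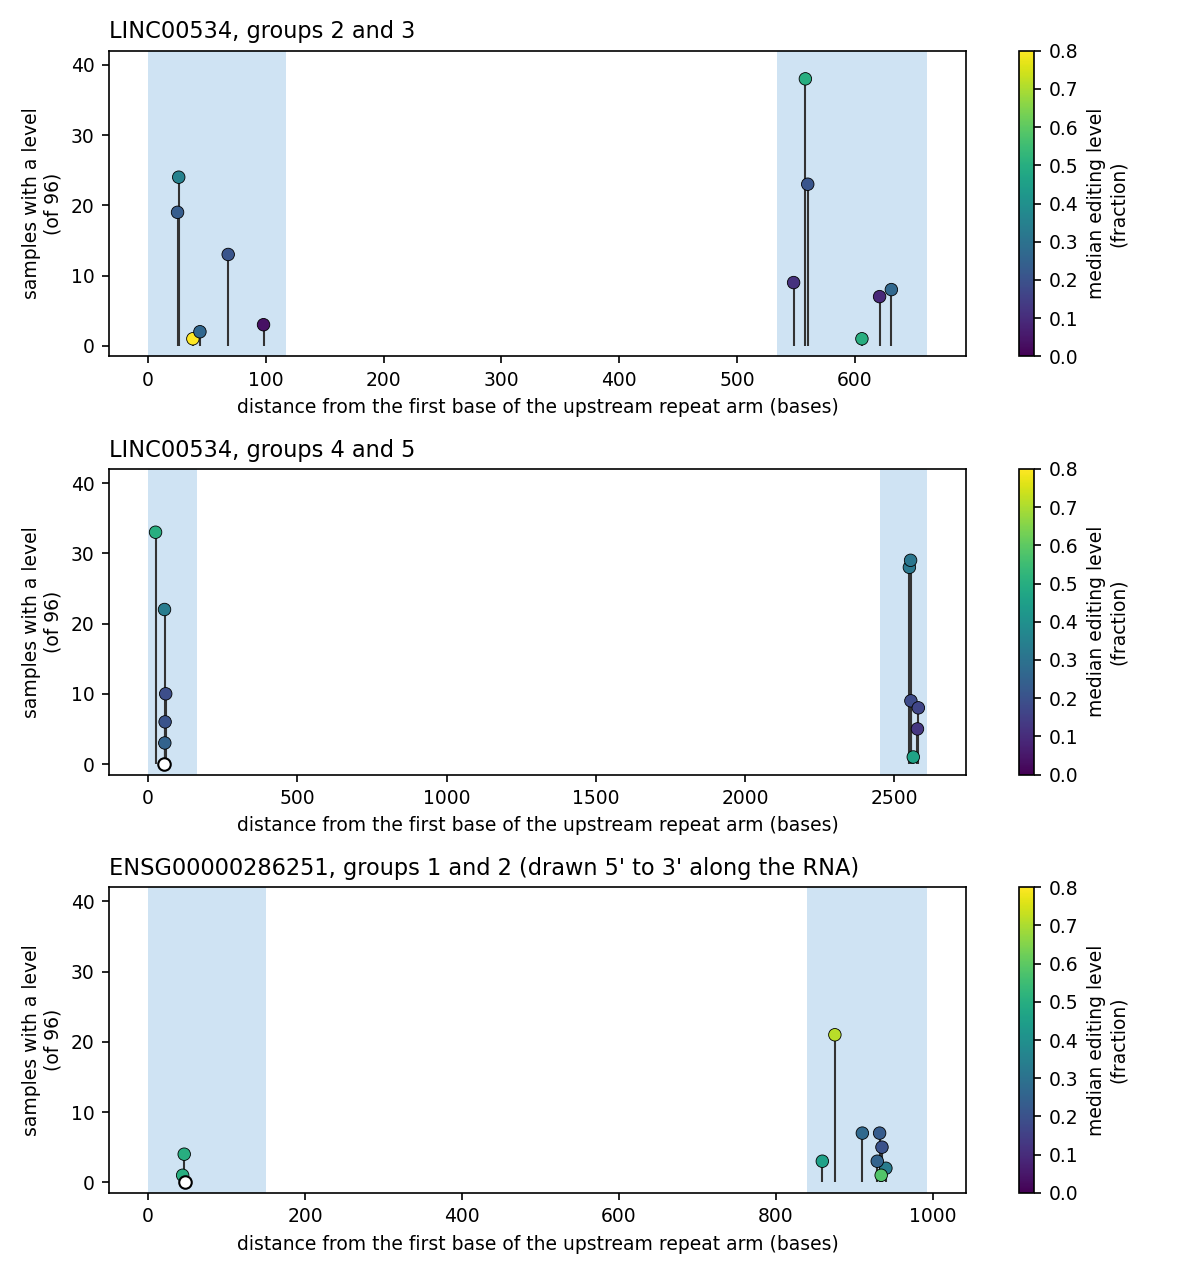
Listed sites of LINC00534 and ENSG00000286251 along their inverted repeat arms (shaded), with distance in bases on the horizontal axis, the number of the 96 samples with a level as the height, and the median editing level of those samples as the colour. Open circles had a level in 0 samples. In LINC00534 both arms of each pair carried sites found in more than 20 samples, while in ENSG00000286251 the upstream arm reached 4 samples and the downstream arm 21.

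Levels were recorded far more widely in LINC00534. At least 1 of its sites had a level in 56 of the 96 samples (58.3%), with 0 to 15 sites per sample, a median of 1 and a mean of 3.15 ± 3.73 (SD, n = 96). ENSG00000286251 had one in 26 samples (27.1%), with 0 to 7 sites per sample and a mean of 0.583 ± 1.31 (SD, n = 96). In all, 302 levels of LINC00534 and 56 of ENSG00000286251 were recorded. Of the sites of LINC00534, 10 of 25 (40.0%) had a level in at least 10 samples, against 24 of the 330 other vlincRNA sites (7.27%) and 568 of 4111 sites outside both loci (13.8%). In ENSG00000286251 this was 1 of 13.

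The most widely found site of LINC00534 was 90321939 in group 3, an annotated site present in public editing databases. It had a level in 38 samples, from 0.194 to 0.900 with a median of 0.5. Next came 90328820 in group 4, an unannotated site with a level in 33 samples, from 0.235 to 1 with a median of 0.5. Both thus had the same median, in different repeat pairs. The neighbours 90331350 and 90331346 in group 5 had lower levels, with medians of 0.314 in 29 samples and 0.322 in 28 samples. The fifth, 90321407 in group 2, had a median of 0.355 in 24 samples. Each of the 4 groups therefore held at least 1 of the 5 most found sites, and 6 of the 25 sites were annotated, with 19 unannotated. At the lower end, 6 sites had a level in at most 2 samples. Site 90303104 had none in the samples used here, and 90328847 was listed from Sanger sequencing only and carries no level. Its neighbour 90328850, positive in the 1 sample tested by Sanger sequencing, had a level in 22 samples, from 0.0714 to 0.750 with a median of 0.333.

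In ENSG00000286251 a single site dominated. Site 126433314 in group 1 had a level in 21 of the 26 samples with any site of the gene, from 0.4 to 1 with a median of 0.714. Its highest values were 1 in both samples with DMSO followed by 1 h or 2 h of actinomycin D, and its lowest was 0.4 in DMSO for 3 h followed by DMSO for 6 h. The other sites were found in far fewer samples. Sites 126433279 and 126433257 each had a level in 7 samples, with medians of 0.270 and 0.231, and 126433254 in 5 samples with a median of 0.2. The most found site of the opposite arm, 126434143, had a level in 4 samples, from 0.429 to 0.750. All 13 sites were unannotated. Sanger sequencing was negative at 126433279 in the 1 sample tested, in which its listed level was 0.750. Sites 126434142 and 126472712 had no level in the samples used here, and 126472751, the other site of the hairpin, had 0.556 after mirin and 0.5 in DMSO directly after wash-out.

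The groups were often found in the same samples. In LINC00534, 33 samples had a level in group 2 and 44 in group 3, and 27 had both, which is 81.8% of the former and 61.4% of the latter. Groups 4 and 5, the other repeat pair, were found in 33 and 38 samples and together in 23 (69.7% and 60.5%). The overlap was not limited to arms that face each other: groups 3 and 5 shared 33 samples, 75.0% and 86.8% of theirs. All 4 groups had a level in 16 samples. Single sites of the same group overlapped too. In group 4, all 22 samples with 90328850 also had 90328820, while 22 of the 33 samples with 90328820 (66.7%) had 90328850. In ENSG00000286251 both facing arms had a level in 2 samples, of 24 with group 1 and 4 with group 2.

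Both loci also coincided. Of the 26 samples with a site of ENSG00000286251, 23 (88.5%) had one of LINC00534, and of the 56 samples with LINC00534, 23 (41.1%) had ENSG00000286251. Among the 16 samples with all 4 groups of LINC00534, 13 had a site of ENSG00000286251, against 3 of the 40 samples with none. The numbers of sites per sample gave Pearson's r of 0.310 and Spearman's rho of 0.519 over the 96 samples (permutation p = 0.00568 and 2e-05, adjusted over 21 relations 0.0398 and 0.00042). The second is the smallest p that the permutations can give. Without both samples farthest from the median of LINC00534, r was 0.300. Within treatment sets r was 0.601 in the time course (n = 20), 0.550 with alpha-amanitin (n = 11), 0.435 in the wash-out (exact permutation p = 0.242, n = 9), 0.427 in the actinomycin D chase (n = 19), 0.0772 in the kinase inhibitor set (n = 10) and -0.0909 in the lines other than AsiSI (n = 12), none with an adjusted p below 0.05. Without the samples whose place is assumed, r was 0.548 in the time course (n = 18) and 0.497 with alpha-amanitin (n = 10). In the chase rho was 0.695 (permutation p = 0.0021, adjusted 0.0147). With the number of other listed sites, r over all samples was 0.0615 for LINC00534 and 0.0675 for ENSG00000286251 (permutation p = 0.542 and 0.501). Within sets this relation was uneven for LINC00534, with r of 0.878 with alpha-amanitin and -0.829 in the kinase inhibitor set (permutation p = 0.00112 and 0.00306, adjusted 0.0235 and 0.0321), the former 0.867 without the DMSO sample whose place is assumed.

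Of the 92 other listed genes with at least 10 listed sites, those most like LINC00534 in the number of sites per sample were STXBP5 (rho = 0.544), ENSG00000286251 (0.519) and LINC02109 (0.511), where the median gene had 0.141. For ENSG00000286251 they were LINC00534 (0.519), LINC02109 (0.47) and the overlapping pair ENSG00000266450 and ENSG00000266602 (0.383), against a median of 0.105. These values are over the same 96 samples.

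Mean levels were lower in samples with more sites. Each mean is over whichever sites had a level in the sample, so samples are compared over different sites. Samples with 1 to 3 sites of LINC00534 had mean levels from 0.458 to 0.756 (median 0.505, n = 19), and those with 8 to 15 sites from 0.190 to 0.333 (median 0.251, n = 15), without overlap. At the single site 90321939 the medians were 0.608 in 6 samples of the first kind and 0.422 in 15 of the second, with overlapping ranges of 0.342 to 0.714 and 0.194 to 0.760. For ENSG00000286251 the mean level was 0.614 ± 0.167 (SD, n = 13) with 1 site and 0.452 ± 0.137 (SD, n = 13) with 2 to 7.

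**Figure D2:**
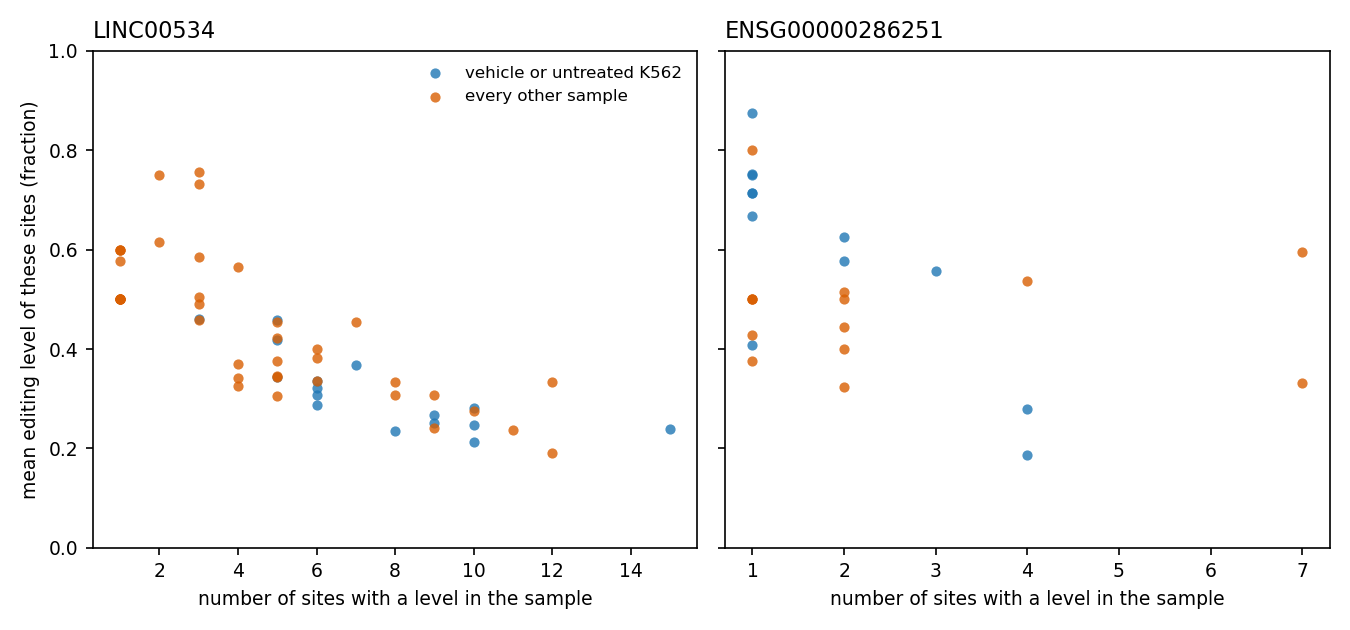
Mean editing level of the sites with a level (fraction, vertical axis) against their number in the sample (horizontal axis) for LINC00534 and ENSG00000286251, each point a sample with at least 1 site, blue for vehicle or untreated K562. In LINC00534 the mean level runs from 0.458 to 0.756 in samples with 1 to 3 sites and from 0.190 to 0.333 in samples with 8 to 15.

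Against this background the mean level of LINC00534 in the 43 samples with at least 3 of its sites was 0.366 ± 0.124 (SD), and that of the other vlincRNA sites in the same samples 0.425 ± 0.0798, a difference of -0.0584 with LINC00534 the higher in 10 of 43 (permutation test exchanging both values within samples, two-sided, p = 0.0101, adjusted over 3 tests 0.0152). In the actinomycin D chase the difference was 0.0220 in the other direction. The difference did not pass with sites detected by at least 2 methods (permutation p = 0.0538) or in samples with at least 1 site (permutation p = 0.158). Samples were kept by the number of sites of LINC00534, with which its mean level fell. No such number was required of the other vlincRNA sites, and the part of this choice in the difference was not tested. In the 6 samples with at least 3 sites of ENSG00000286251 its level was 0.415 ± 0.170 and that of the other vlincRNA sites 0.435 ± 0.0665, ENSG00000286251 being the higher in 3 of 6 (exact permutation p = 0.812). In the 26 samples with at least 1 site the difference turned to 0.126 (permutation p = 0.0031). In the 23 samples with at least 1 site of both loci, LINC00534 averaged 0.343 ± 0.12 and ENSG00000286251 0.545 ± 0.176. LINC00534 was the higher in 4 of 23 (permutation p = 0.0002, adjusted 0.0006). The number of sites differs between the loci in these samples, and since mean levels moved with that number, as given above, its part in the difference was not tested.

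Among vehicle and untreated K562 cells LINC00534 was always found. All 16 samples of untreated K562 or K562 in DMSO without a transcription inhibitor had sites of LINC00534, from 3 to 15 with a median of 6.5, a grouping made after the values had been seen. Of the 93 genes with at least 10 listed sites, 3 (3.23%) had a level in all 16. ENSG00000286251 had a site in 12 of the 16, from 0 to 4, which 18 of the 93 genes (19.4%) reached or exceeded. DMSO for 2 h had 3 and 6 sites of LINC00534 in its pair of samples and DMSO for 6 h had 15 and 8. The highest counts outside vehicle were 12 after 6 h of imatinib, 12 in SN-38 followed by 6 h of wash-out and 11 after 3 h of rapamycin. All 5 samples with imatinib had sites, from 3 to 12, as had all 4 with mTOR inhibitors, 11 and 8 with rapamycin and 9 and 5 with Torin1 at 3 and 6 h.

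Derivative lines were nearly empty. LINC00534 had a site in 1 of 4 AsiSI samples (5 sites, doxycycline for 13 days) and in 1 of 12 samples of the other lines (1 site, LINE in water), and ENSG00000286251 in 1 of 16 (CSB in water). Doxycycline and water had means of 0.62 ± 1.77 and 0.125 ± 0.354 sites of LINC00534 (SD, n = 8 each, exact permutation p = 1), and without the AsiSI sample with 5 sites the difference changed sign. These lines also had fewer other listed sites with a level, from 30 to 124 with a median of 62.5 against 255.5 in K562, and the part of this in the result was not tested.

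**Figure D3:**
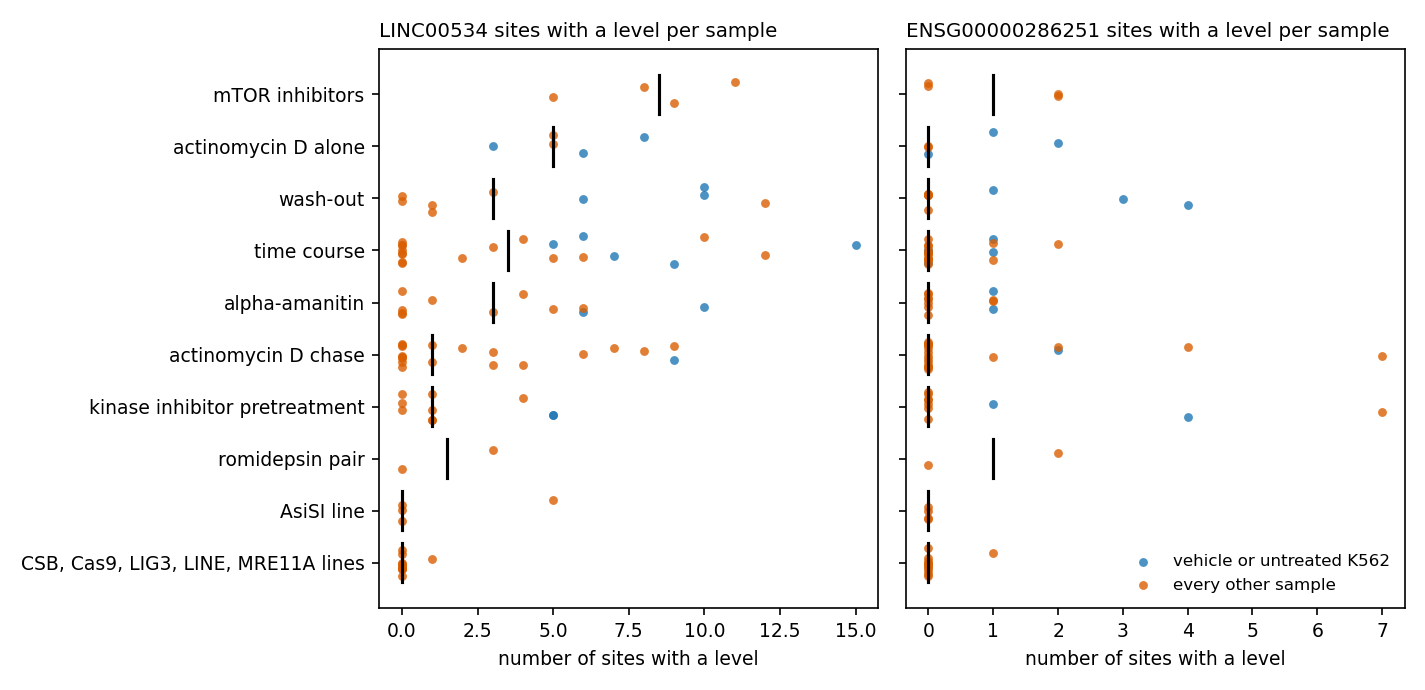
Number of sites with a level (horizontal axis) in every sample of the 10 treatment sets for LINC00534 and ENSG00000286251, blue for vehicle or untreated K562, orange for every other sample and a black bar at the median of the set. The 16 blue points of LINC00534 sit between 3 and 15, and 11 of the 12 samples of the CSB, Cas9, LIG3, LINE and MRE11A lines are at 0.

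Samples with etoposide mostly had no level at either locus. In the time course, DMSO had 15, 7, 5, 6 and 9 sites of LINC00534 at 6, 12, 24, 36 and 48 h. Samples named etoposide had 5 at 6 h and 0 at each later time, and samples named romidepsin 2 at 6 h and 0 later. Both drugs are joined because their names conflict between sources of the study, and their highest sample equalled the lowest of DMSO. The means were 0.7 ± 1.64 (SD, n = 10) and 8.4 ± 3.97 (SD, n = 5), a difference of -7.7 (exact permutation p = 0.00133, two-sided). Among the 93 genes, 4 (4.30%) had fewer sites at an unadjusted exact p below 0.05, and after adjustment over the 93 genes LINC00534 had an exact p of 0.0619 and did not pass. The other listed sites averaged 272.5 against 349.0 (exact permutation p = 0.404). Without the 6 h samples, an alternative added after the values had been seen, the difference was -6.75 (exact permutation p = 0.00404). With the other samples of DMSO and romidepsin for 6 h in place of those assumed to belong here it was -6.5 (exact permutation p = 0.00133), with all of them -7.7 (exact permutation p = 0.000323) and with none -6.19 (exact permutation p = 0.00559). ENSG00000286251 had a site in 1 of 10 and 2 of 5 samples (exact permutation p = 0.484).

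Other treatment sets hold DMSO and etoposide samples with the same times, and their values were set side by side after they had been seen, as a description. In the 13 pairs LINC00534 had more sites with DMSO in 12 and none in either sample of the other, with 5.54 ± 3.55 against 0.385 ± 0.870 sites (SD, n = 13 each). The pairs in the alpha-amanitin set were 10 and 0, 6 and 0, 3 and 0, and 1 and 0 sites at 0, 2, 4 and 6 h of alpha-amanitin. In the wash-out they were 10 and 0, 10 and 0, and 6 and 1. LINC00534 was the only one of the 93 genes with more sites under DMSO in at least 12 pairs (1.08%), a cut at its own value. It also had the most sites per vehicle or untreated sample of these genes, a mean of 7.5, with STXBP5 next at 4.62. STXBP5 had more with DMSO in 9 pairs and with etoposide in 1, TMEM245 in 9 and 0, and LINC02109 in 4 and 1. ENSG00000286251 had more in 9 pairs and an equal number in 4, with 0 sites in all 13 etoposide samples. At a cut set at these values, 3 of the 93 genes (3.23%) had more with DMSO in at least 9 pairs and with etoposide in none. The other listed sites were more numerous with DMSO in 6 of the 13 pairs and with etoposide in 7, with 229 ± 69.7 and 238 ± 119. Fewer molecules of the RNA and less editing of each cannot be told apart in these values.

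**Figure D4:**
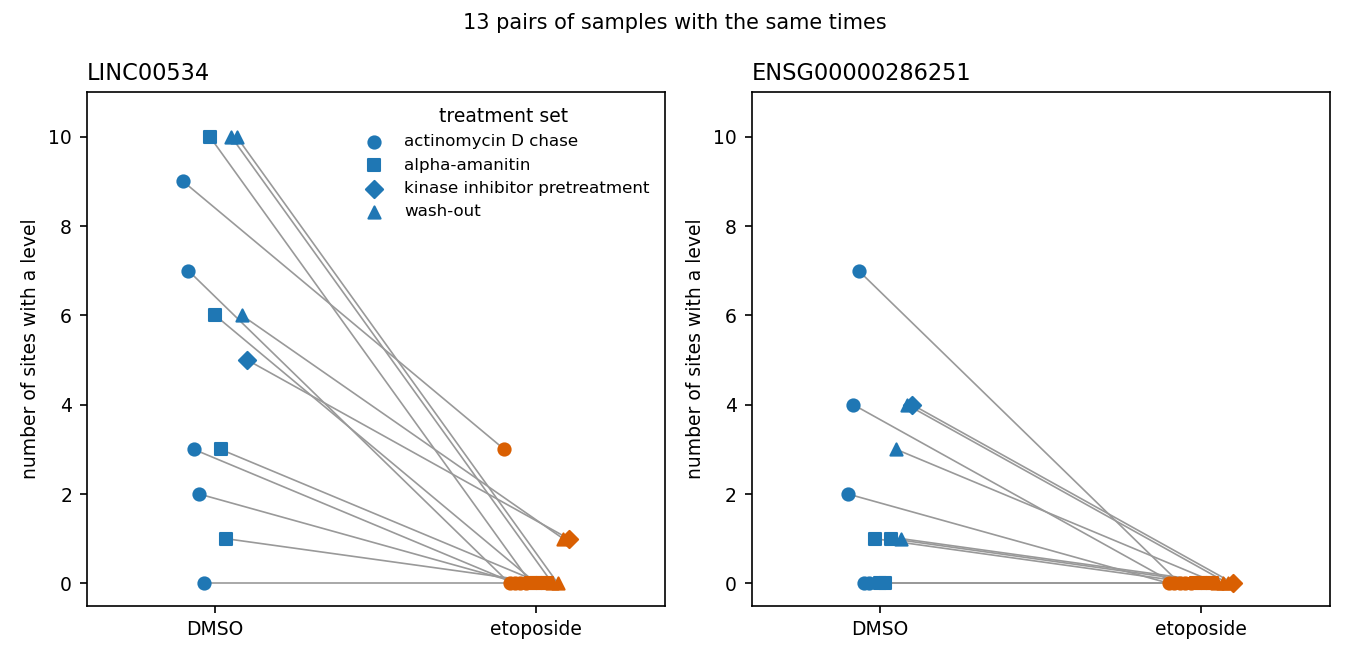
Number of sites with a level (vertical axis) in the 13 pairs of DMSO (blue) and etoposide (orange) samples with the same times, each line a pair and each marker shape a treatment set. In LINC00534 12 of 13 lines go down and 1 stays at 0, and in ENSG00000286251 9 go down and every etoposide sample is at 0.

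After wash-out, counts were unlike in the single samples of the topoisomerase poisons. SN-38 had 1, 3 and 12 sites of LINC00534 at 0, 2 and 6 h, etoposide 0, 0 and 1, and DMSO 10, 10 and 6, each in 1 sample, so the difference between both drugs was not tested. The other listed sites were 262, 130 and 154 with SN-38, 82, 76 and 86 with etoposide and 163, 98 and 153 with DMSO, and their part was not tested. Together the drugs averaged 2.83 ± 4.62 (SD, n = 6) and DMSO 8.67 ± 2.31 (SD, n = 3), an exact permutation p of 0.0952 where the smallest possible was 0.0238. Without SN-38 at 6 h after wash-out the difference was -7.67 (exact permutation p = 0.0357). ENSG00000286251 had 3, 1 and 4 sites with DMSO and 0 in all 6 drug samples, SN-38 at 6 h included. Its groups did not overlap, with an exact permutation p of 0.0238, the smallest possible, while with labels permuted within hours after wash-out the exact p was 0.0741, again the smallest possible. This was the only one of the 93 genes with fewer sites at that threshold (1.08%), and after adjustment over the genes its exact p was 1. Without any 1 of the DMSO samples the exact permutation p was 0.0714, in each case the smallest possible. Without SN-38 the exact permutation p was 0.1, the smallest that 3 against 3 samples allow.

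Actinomycin D, which blocks transcription, was followed over time after 6 h of pretreatment. After DMSO, LINC00534 had 9, 7, 3, 2 and 0 sites at 0, 1, 2, 4 and 6 h. After talazoparib it had 9, 4 and 1, after cyclophosphamide 8, 6 and 0, after etoposide 3, 0 and 0 and after SN-38 1, 0 and 0 at 0, 2 and 6 h. In each of the 5 pretreatments the count at 6 h was below that at 0 h. The 5 samples at 0 h averaged 6.00 ± 3.74 and the 5 at 6 h 0.2 ± 0.447 (SD), a difference of -5.8 (exact permutation p = 0.0159), while the other listed sites averaged 280.6 and 251.2 (exact permutation p = 0.460). Fewer sites at this threshold were seen for 16 of the 93 genes (17.2%), so that LINC00534 was one of many, and its exact p adjusted over the genes was 0.148. With labels permuted within pretreatments the exact p was 0.0625, the smallest possible. Actinomycin D with no pretreatment had 5 sites at 2 h and 5 at 6 h, where DMSO had 3 and 6 in its samples at 2 h and 15 and 8 in those at 6 h, and untreated cells 6. ENSG00000286251 had 2, 4, 7, 0 and 0 sites after DMSO over the same hours, and 0 in all 5 samples at 6 h against 0 to 2 at 0 h (exact permutation p = 0.167).

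**Figure D5:**
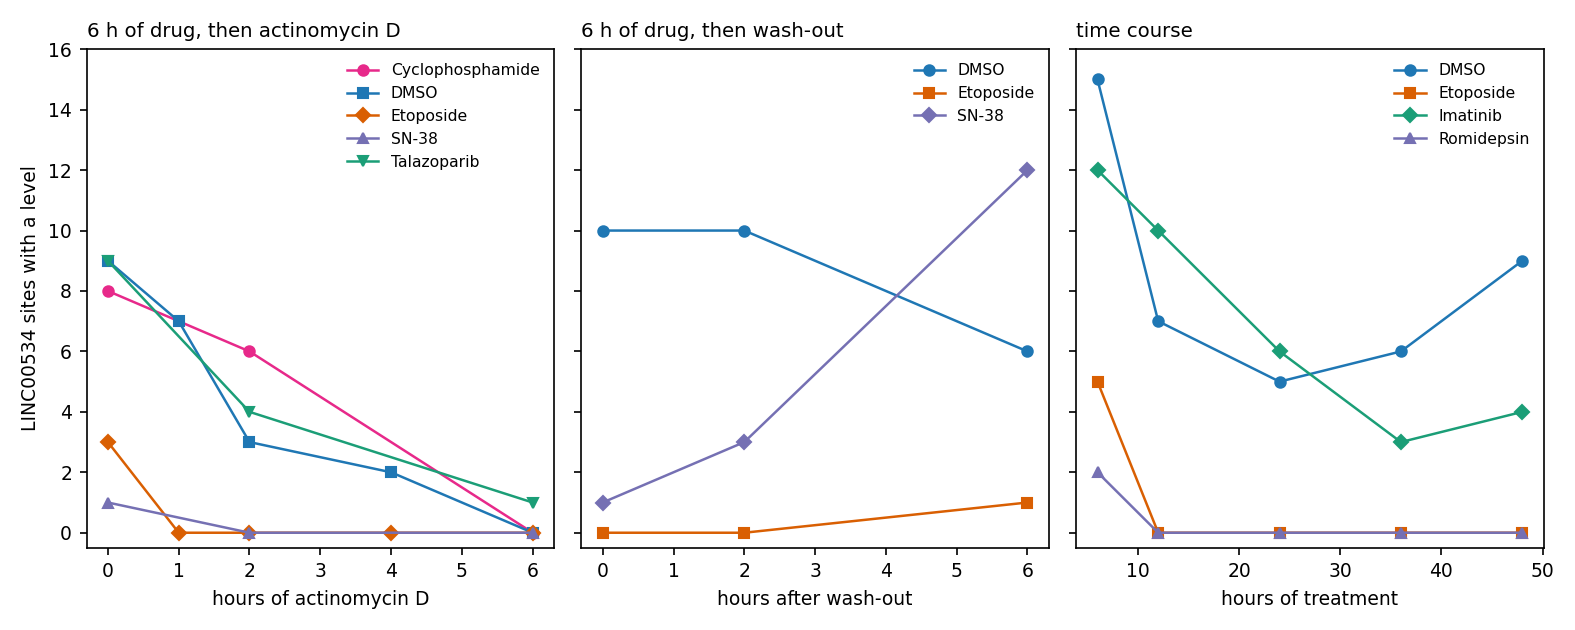
Number of LINC00534 sites with a level (vertical axis) over hours of actinomycin D, hours after wash-out and hours of treatment in the time course, 1 sample per point and 1 line per drug. After actinomycin D the lines end at 0 or 1, SN-38 ends at 12 after wash-out, and samples named etoposide and romidepsin are at 0 from 12 h on.

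The remaining comparisons did not pass as planned. With alpha-amanitin after DMSO, LINC00534 had 10, 6, 3 and 1 sites at 0, 2, 4 and 6 h, and after etoposide 0 at every time, and later against earlier times gave 1.00 ± 1.41 and 4.00 ± 4.90 (SD, n = 4 each, exact permutation p = 0.429). The 12 time course samples at 24 to 48 h averaged 2.75 ± 3.19 sites and the 8 at 6 and 12 h 6.38 ± 5.63 (exact permutation p = 0.0981), where 2 of the 93 genes (2.15%) had fewer sites late. Without the 12 h sample of etoposide, or that of romidepsin, the difference was -4.54 (exact permutation p = 0.0455). It also passed with labels permuted within drugs (permutation p = 0.0112) and as -3.68 sites per 100 other listed sites (exact permutation p = 0.0031), and with the other samples of DMSO and romidepsin for 6 h it was -2.5 (exact permutation p = 0.197). The other listed sites moved the opposite way, 434 late against 147 early (exact permutation p = 1.59e-05). Imatinib, with 12, 10, 6, 3 and 4 sites at 6 to 48 h, averaged 7 ± 3.87 and DMSO 8.4 ± 3.97 (SD, n = 5 each, exact permutation p = 0.635), and without the 6 h DMSO sample with 15 sites the difference was 0.25. With the other 6 h DMSO sample it was 0.

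In the kinase inhibitor set, DMSO followed by DMSO had 5 sites of LINC00534 in both samples, DMSO followed by talazoparib 4, by etoposide 1 and by SN-38 or mirin 0. After the inhibitors the 4 agents gave 0 or 1 site (exact permutation p = 0.971 against DMSO pretreatment). Mirin after DMSO stood apart in ENSG00000286251, with 7 of its 13 sites in 1 sample, at a mean level of 0.332, while LINC00534 had 0 there. The other sample with 7 sites, DMSO followed by 2 h of actinomycin D, had 3 sites of LINC00534 at a mean level of 0.756, the highest of LINC00534 in any sample.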

How the data were processed

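The data were a list of editing sites in K562 RNA-seq samples. The authors aligned reads to GRCh38 with TopHat2 2.1.1 (Picard 2.0.1 and SAMtools 1.9 are named in the submitters' processing notes), called sites per sample with REDItools, RED-ML and SPRINT, removed variants, repeats and sites of low mappability, and required a site in 2 or more samples and a highest level above 0.2. The deposited values are editing levels as a fraction, each the mean that the authors took over whichever callers found the site. The columns of 96 samples were used and 34 others were not. The untreated column was mapped by its group. A value of 0 was counted as no level, and depth per site is unknown.

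Sites were assigned to GENCODE release 44 genes on the same strand. Groups join sites within 100 bases. For inverted matches, a window of 201 bases around each site was aligned to the opposite strand of 2000 or 5000 bases on either side with blastn 2.17.0 (word size 7), and the best match was taken. Sets of samples were compared by exact permutation tests of the number of sites with a level, two-sided with the smaller tail doubled, and the same test was run on all 93 genes with at least 10 listed sites, with Benjamini-Hochberg adjustment over these and a threshold of 0.05. Most compared sets join conditions of 1 sample each, and nothing says which samples came from separate cultures, so p-values measure the spread between these samples. Relations used 100000 permutations, exact under 10 samples. An adjustment over 16 comparisons of both loci had been planned and is not given. The named sites were the 5 with a level in the most samples per locus and those tested by Sanger sequencing, and the most alike genes were the 3 with the highest rho. The members, lists and tests were chosen with earlier results of these data known. The tests were tried on simulated data. Alternatives were a level of at least 0.2, counts per 100 other listed sites, 1 site per cluster, labels permuted within conditions, leaving out single samples, medians, at least 1 site, at least 2 methods, single treatment sets, other match rules and, added after seeing the data, other choices of the samples whose set is assumed. Treatment sets were made from the titles, and the samples of DMSO for 2 and 6 h, romidepsin for 6 h and untreated cells were placed in them without a label that says so. Software was Python 3.11.15, pysam 0.24.0, matplotlib 3.10.9, scipy 1.17.1, pandas 2.3.3 and numpy 2.4.6.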

Additional observations from a re-analysis of the deposited data

Results flagged for a closer look

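In 11 of 24 sets of 4 to 10 samples, 1 sample lay far from the others by Dixon's criterion at the 95% level. Chance gives this in about 1 in 20 sets only for normally distributed values. These are small counts with many ties, so that rate cannot be set against the 11 of 24. Many of these sets hold mostly 0, where a single site is enough.

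For LINC00534, 6 h of actinomycin D after talazoparib had 1 site and the other 4 samples at 6 h had 0. Etoposide for 6 h had 5 sites in the time course, where the next sample had 2. The AsiSI line with doxycycline for 13 days had 5 and LINE in water had 1, where the others of each set had 0. SN-38 after the kinase inhibitors had 0, where the other 3 had 1. SN-38 with 6 h of wash-out had 12 sites, where the next sample had 3, with 154 other listed sites.

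For ENSG00000286251, DMSO followed by 6 h of alpha-amanitin had 1 site, as had DMSO with 0 h of alpha-amanitin, etoposide for 6 h and CSB in water, where all others of their sets had 0. Mirin after DMSO had 7 sites and the other 3 agents 0, with 371 other listed sites in that sample. No cause was tested for any of these.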

How the results depend on the processing

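Of 324 alternatives, 282 kept direction and side of the threshold, 19 reversed direction, 14 no longer passed, 8 newly passed and 1 value moved. Causes were not tested. For LINC00534, 6 h against 0 h of actinomycin D was -5.8 with labels permuted within pretreatments (exact p = 0.0625). Late against early time course was -3.68 per 100 other listed sites (permutation p = 0.0031) and -3.62 with labels permuted within drugs (permutation p = 0.0112). Imatinib against DMSO was 0.2 with levels of at least 0.2 and with 1 site per cluster. For ENSG00000286251, the wash-out difference was -2.67 with labels permuted within hours (exact p = 0.0741) and without SN-38 (exact p = 0.1), alternatives of which the second was chosen after seeing the data.

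The level of LINC00534 against other vlincRNA sites differed by -0.0460 with at least 2 methods, -0.0282 with at least 1 site, -0.0427 with alpha-amanitin and 0.0220 in the chase. That of ENSG00000286251 differed by 0.126 with at least 1 site (permutation p = 0.0031). With other listed sites, r in the chase, alpha-amanitin, kinase inhibitor set and time course was -0.265, 0.878, -0.829 and -0.147 for LINC00534 and -0.0344, 0.671, -0.0794 and -0.285 for ENSG00000286251. Between both loci it was 0.427, 0.550 and 0.0772 in the first 3, -0.0909 in the lines other than AsiSI and 0.435 in the wash-out. Alternatives added after seeing the data concern the samples whose treatment set is assumed. Without them, r with other listed sites was 0.867 (alpha-amanitin) and -0.0682 (time course) for LINC00534 and -0.289 (time course) for ENSG00000286251, and between both loci 0.497 (alpha-amanitin). Imatinib against DMSO was 0.25 for LINC00534 with no such sample and -0.0667 for ENSG00000286251 with all of them. Inverted matches of LINC00534 sites went to 96% within 5000 bases.

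Leaving out 1 sample at a time, the differences for LINC00534 ran from -7.05 to -5.05 (actinomycin D), -8.55 to -6.05 (etoposide or romidepsin), -7.67 to -5.17 (wash-out), -4.54 to -2.39 (late against early), -4.33 to -1 (alpha-amanitin), -2.65 to 0.25 (imatinib), -0.125 to 0.62 (doxycycline) and -0.917 to 0.417 (kinase inhibitors). For ENSG00000286251 they ran from -3.5 to -2 (wash-out), -1.25 to -0.75 (actinomycin D), -0.409 to -0.119 (late against early), -0.4 to -0.15 (etoposide or romidepsin), -0.25 to 0.25 (alpha-amanitin), -0.15 to 0.35 (imatinib), -0.143 to 0 (doxycycline) and -2.33 to 0 (kinase inhibitors). No paired analysis was possible because replicate numbers are shared only by conditions that were not compared, so the pairing of samples here is by shared treatment or time, in the permutations within these. Depth per site is unknown, so a site without a level may be unedited, not expressed or too thinly covered, and these cannot be told apart.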

Other observations

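The place of the sites in their genes differed among the 93 genes with at least 10 listed sites. In 19 genes, both loci among them, the median listed site lay at least 100 kb from the start of the gene, and 17 of these (89.5%) had more sites with DMSO than with etoposide in more of the 13 pairs, with 2 the other way. Among the 74 genes with sites nearer to the start, 38 (51.4%) had more with DMSO, 26 more with etoposide and 10 were equal. The median gene had more with DMSO in 3 pairs in both kinds, from 1 to 12 in the first and 0 to 9 in the second. Many of these counts thus rest on few pairs. Of the 19, 4 share listed sites with a gene of the second kind that overlaps them, and 13 of the other 15 had more with DMSO. Overlapping genes among the 74 also repeat counts, as HBE1, HBG2 and OR51B5 do, each with more in 7 pairs with DMSO and 1 with etoposide. Both loci are counted among the 17, and the median site of LINC00534, at 100.7 kb, lay only just beyond the cut. The distance was chosen after the values had been seen, the pairs are the same for all genes, and no test was made.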
